A study of Mus musculus with 2 samples.

Results

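The genes described here are 9 genes of the Wnt pathway and of the Sox family, Dkk2, Fzd4, Fzd6, Lef1, Axin2, Apcdd1, Sox17, Sox18 and Sox7, out of 17139 genes listed in both tables. The list was chosen by the levels of these genes over the endothelial states and their ratios between the conditions in the same cells, and these values are therefore given as a description with no test. The cells were endothelial cells (ECs) from tumours of LLC, a Lewis lung carcinoma line, implanted under the skin of adult male C57BL/6 mice (C57BL/6 J in the methods). The PBS library came from a tumour injected with PBS, and the cGAMP library from a tumour injected with cGAMP, the cyclic dinucleotide that activates STING. Both were prepared from ECs sorted as live CD45- CD31+ cells. The methods place the sampling a day after the injection, whereas a legend of the supplement gives a shorter time. Each library was made from 1 mouse, so that the effect of cGAMP, the mouse and the library cannot be told apart, and all intervals below are 95% intervals that cover counting error only.

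Wnt ligands bind Frizzled receptors, such as Fzd4 and Fzd6, together with the co-receptors Lrp5 and Lrp6. This keeps β-catenin from being degraded by a complex that holds Axin, so that β-catenin can enter the nucleus and act with TCF and LEF factors. Dkk2 is a secreted protein that binds Lrp5 and Lrp6, Apcdd1 is a membrane inhibitor of the pathway, and Axin2 is both a part of the degradation complex and a widely used target gene of β-catenin. In the endothelium, Fzd4 is best known as the receptor of the retinal vasculature, where it acts with Tspan12, and Lef1, Axin2 and Apcdd1 mark the Wnt-active vessels of the brain. Sox7, Sox17 and Sox18 form the SoxF group of transcription factors of vascular development. Sox17 is known for its part in arterial fate and Sox18 for its part in the start of the lymphatic vessels.

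The PBS library held 2517 ECs with 92081146 unique molecular identifiers (UMIs, each the mark of 1 captured transcript), at a median of 29780 per cell, and the cGAMP library 1340 ECs with 63366746 UMIs, at a median of 41178. Levels are the UMIs of a gene summed over cells, per 1000000 UMIs of the same cells (CPM). They count transcript ends and not transcript length, and are compared between cells and not between genes. A UMI of Pecam1, the gene of CD31, was present in 99.7% (PBS) and 99.6% (cGAMP) of the cells. The cells fell into 8 clusters when grouped without the 9 genes. An arterial-like cluster led by Gja4 and Gja5 held 361 PBS-treated and 178 cGAMP-treated ECs. The tip-like clusters were led by Gal (378 and 124 ECs) and by Pgf (109 and 62), and the stalk-like clusters by Ubd (325 and 321) and by Igfbp5 (49 and 53). The Ubd cluster carried its name on 5 of 15 stalk-like markers, the Igfbp5 cluster on 15 of 15. Proliferative-like clusters were led by Ube2c (490 and 183) and by Ung (187 and 142), the latter named on 4 of 15 markers. A cluster led by Ramp3, which had haemoglobin genes among its 10 leading genes, stayed unnamed (618 and 277).

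Between the libraries, 6 of the 9 genes reached 5 CPM in at least 1 library, which 9509 genes did, and Lef1, Axin2 and Apcdd1 stayed under it. Of the 6, Dkk2 and Fzd6 were at least 1.5-fold lower in the cGAMP library and none was at least 1.5-fold higher. Of all 9509 genes, 7.41% were lower and 4.53% higher by this measure, 11.9% in either direction, with a log2 ratio of -0.08 at the median of the whole table. As the list was named with these ratios known, nothing is read from its share.

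**Figure D1:**
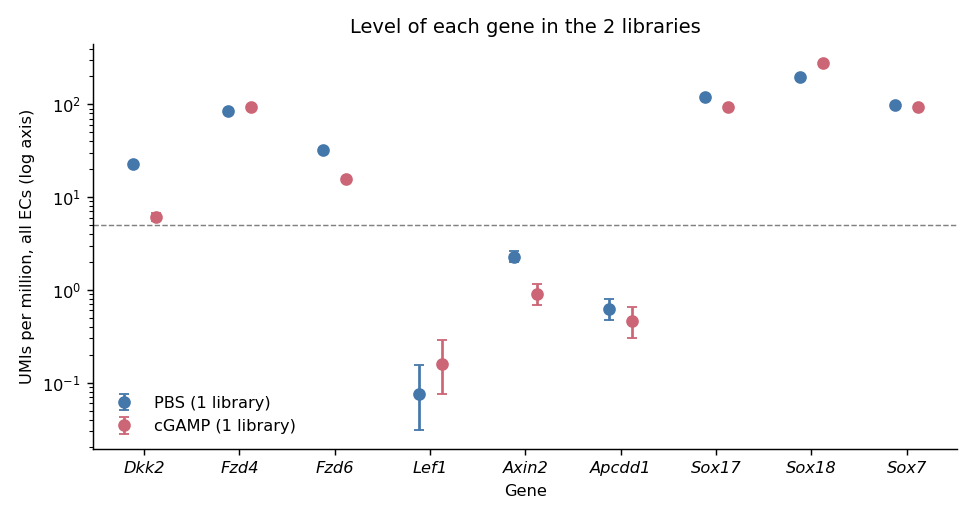
Level of each of the 9 genes over all ECs of a library, in CPM on a log axis, for the PBS library (blue) and the cGAMP library (red), 1 library each. Bars are exact Poisson 95% intervals and are hidden by the points where they are narrow, and the dashed line marks 5 CPM. Dkk2 and Fzd6 lie lower in the cGAMP library, Sox18 lies higher, and the 3 genes under the dashed line are Lef1, Axin2 and Apcdd1.

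Dkk2, the secreted protein that binds Lrp5 and Lrp6, showed the lowest ratio of the 9 genes. It is listed on chromosome 3 of GRCm38, from 132085292 to 132180304 on the + strand. Dkk2 had 2081 UMIs in the PBS library, or 22.6 CPM (21.6 to 23.6), and 388 UMIs in the cGAMP library, or 6.12 CPM (5.53 to 6.76). This is a log2 ratio of -1.88 (-2.04 to -1.73), 3.69-fold lower, and 13 of the 9509 genes had a lower one. With PBS the UMIs were spread over 765 of 2517 ECs and with cGAMP over 192 of 1340, and the 5 cells richest in Dkk2 held 4.998% and 8.76% of them.

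Dkk2 was highest in the arterial-like cluster in both libraries. In the arterial-like cluster it stood at 87.9 CPM (81.7 to 94.3) with PBS, 5.55-fold the level in the other ECs, and at 21.6 CPM (17.9 to 25.8) with cGAMP, 4.68-fold the level in the other ECs. The Igfbp5 stalk-like cluster came second in both, at 34.0 CPM (23.9 to 46.8) and 14.4 CPM (8.92 to 22.03), and the intervals of the first 2 clusters were apart with PBS and overlapped with cGAMP. The Gal tip-like cluster was lowest in both, at 6.47 and 2.29 CPM. The order from arterial-like through Igfbp5 stalk-like to the Ramp3 cluster was the same in both libraries, and of the 7 pairs of neighbours in the full order 2 had intervals apart with PBS and 0 with cGAMP.

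The lower level of Dkk2 in the cGAMP library was not a matter of 1 cluster. The log2 ratio was below 0 in 8 of 8 clusters, from -2.54 in the Ubd stalk-like to -0.66 in the Pgf tip-like cluster, and the interval lay below 0 in 7 of them, all but the Pgf cluster. Within the arterial-like cluster it was -2.02 (-2.31 to -1.74). Markers of arterial ECs moved with it: 8 of 13 arterial markers past the 5 CPM minimum were at least 1.5-fold lower in the cGAMP library and 1, Mgp, was higher, their median log2 ratio was -0.68, and the summed level of all 15 went from 791 to 603 CPM with none at 0. Within the arterial-like cluster 8 of 14 were lower, against 13.4% of the 9458 genes tested there, with a median log2 ratio of -0.65 against -0.07. The part of these markers in the level of Dkk2 was not tested. With the proportions of the clusters held at their average the log2 ratio of Dkk2 over all ECs was -1.88.

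The upstream sequence is shown for Dkk2 and for Axin2, the 2 members with the lowest ratios for which RefSeq gives a promoter window. Windows were examined for 4 of the 9 genes, Lef1, Dkk2, Fzd4 and Axin2, and the upstream sequence of the other members was not examined. Each sequence below is the 250 bases before the annotated start, on GRCm38.p6, written 5′ to 3′ on the + strand, and capitals mark CTTTG (or its reverse complement CAAAG), the core of the motif bound by TCF and LEF factors.
Dkk2, chr3:132085042-132085291: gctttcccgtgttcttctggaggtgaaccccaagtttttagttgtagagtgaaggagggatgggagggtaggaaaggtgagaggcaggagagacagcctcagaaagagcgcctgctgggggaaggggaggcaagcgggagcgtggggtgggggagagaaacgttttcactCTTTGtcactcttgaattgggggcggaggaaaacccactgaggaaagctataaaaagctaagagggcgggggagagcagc
Axin2, chr11:108920099-108920348: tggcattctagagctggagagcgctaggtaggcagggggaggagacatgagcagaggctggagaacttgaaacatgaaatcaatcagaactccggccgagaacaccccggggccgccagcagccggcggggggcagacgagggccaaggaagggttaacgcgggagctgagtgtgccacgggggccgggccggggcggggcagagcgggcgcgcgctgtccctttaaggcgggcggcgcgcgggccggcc
The Dkk2 window held 1 match to CTTTG, starting at -80 from the annotated start, the 4 windows of Lef1 held 1 to 3, and the Axin2 and Fzd4 windows held none. CTTTG was found on either strand in 48.6% of the 32851 promoter windows of the same length. ACAAT, the core of the motif bound by Sox factors, was found in 27.7% of windows. It had 1 match in 1 of the 4 Lef1 windows, at -131, and none in the windows of Dkk2, Axin2 and Fzd4. No window of the 4 genes held GAAANNGAA, a motif bound by interferon regulatory factors, found in 7.13% of windows. None held TTCNNNGAA, the motif bound by STAT factors, found in 7.02%. These matches are a description of the letters in the windows and say nothing of binding.

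Among the receptors, Fzd6 also had a lower level in the cGAMP library. The gene lies on chromosome 15, from 39006034 to 39038188 on the + strand. Fzd6 had 2979 UMIs with PBS, or 32.4 CPM (31.2 to 33.5), and 982 with cGAMP, or 15.5 CPM (14.5 to 16.5), a log2 ratio of -1.06 (-1.17 to -0.96) or 2.09-fold lower. Of the 9509 genes, 130 had a lower ratio. It led in the Igfbp5 stalk-like cluster, the smallest of the 8, with 118 CPM (98.1 to 140) and 78.2 CPM (64.5 to 94.0), and there the intervals were apart from those of the second cluster, the arterial-like one, in both libraries. The arterial-like cluster had 79.8 CPM (73.9 to 86.0) with PBS, 2.91-fold the other ECs, and 30.01 CPM (25.6 to 34.9) with cGAMP, 2.13-fold the other ECs. Both tip-like clusters were at the bottom of the order, with 15.2 CPM (Gal) and 8.52 CPM (Pgf) with PBS and 6.05 and 5.89 CPM with cGAMP.

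Fzd6 was lower with cGAMP in 8 of 8 clusters, with the interval below 0 in 7. The ratio was lowest in the Ubd stalk-like cluster, with a level of 46.8 CPM (42.1 to 51.8) in the PBS and 13.6 CPM (11.7 to 15.7) in the cGAMP library and a log2 ratio of -1.78 (-2.04 to -1.53). It was -0.59 (-0.96 to -0.21) in the Igfbp5 stalk-like cluster, where Fzd6 was highest. The Igfbp5 cluster held 1.95% of the ECs with PBS and 3.96% with cGAMP, and with the proportions of the clusters held at their average the ratio over all ECs was lower, -1.23.

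Fzd4 did not follow Fzd6. The gene lies on chromosome 7, from 89404355 to 89413134 on the + strand. With PBS the level was 84.3 CPM (82.5 to 86.2) and with cGAMP 93.5 CPM (91.1 to 95.9), for a log2 ratio of 0.15 (0.10 to 0.20), which is short of 1.5-fold. It varied little among the clusters, 1.83-fold from the lowest to the highest with PBS and 1.79-fold with cGAMP, with the Pgf tip-like cluster lowest in both at 59.1 and 69.0 CPM. The interval of the ratio lay above 0 in the arterial-like cluster alone of the 8, with Fzd4 at 88.0 CPM (81.8 to 94.5) in the PBS and 124 CPM (115 to 133) in the cGAMP library and a log2 ratio of 0.49 (0.34 to 0.64). In that cluster Fzd6 was therefore lower and Fzd4 higher in the cGAMP library.

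**Figure D2:**
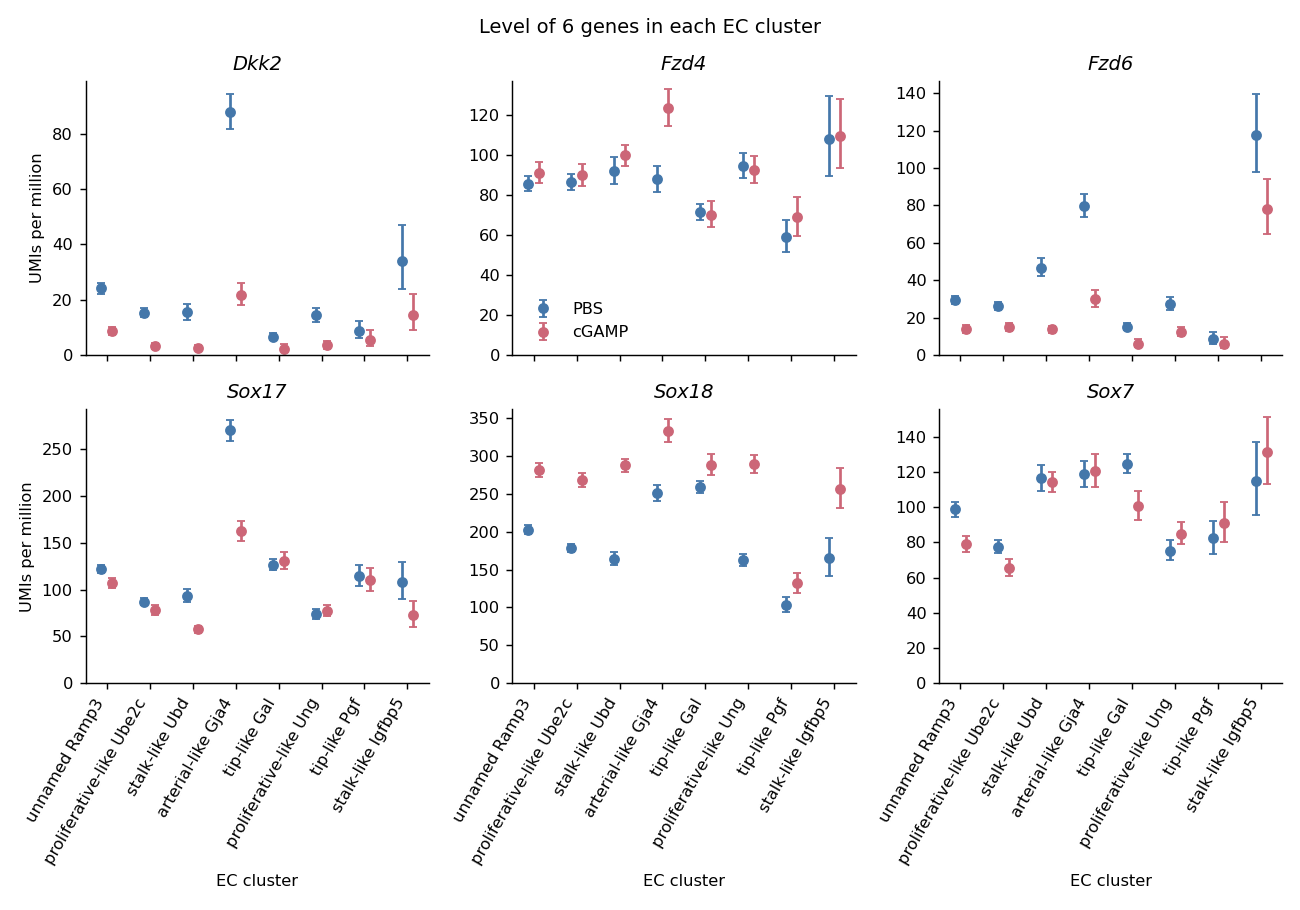
Level of the 6 genes past the minimum of 5 CPM, by EC cluster, in CPM from 0, for the PBS library (blue) and the cGAMP library (red), with exact Poisson 95% intervals. The clusters are named by class and leading gene. Dkk2 and Sox17 peak in the arterial-like cluster, at 87.9 and 270.1 CPM with PBS, Fzd6 in the Igfbp5 stalk-like cluster, and Fzd4, Sox18 and Sox7 vary less than 3-fold among the clusters.

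The 3 genes that mark active Wnt signalling in brain vessels were scarce in these tumour ECs. Axin2, on chromosome 11 from 108920349 to 108950783 on the + strand, had 210 UMIs in 188 PBS-treated ECs and 57 UMIs in 55 cGAMP-treated ECs. This is 2.28 CPM (1.98 to 2.61) and 0.90 CPM (0.68 to 1.17), a log2 ratio of -1.34 (-1.79 to -0.91) or 2.54-fold lower. Axin2 was thus more than 1.5-fold lower at a level under the minimum of 5 CPM, and its ratio was below 0 in the 7 clusters where both libraries had a UMI, with the interval below 0 in 4. With PBS it was highest in the arterial-like cluster, 4.16 CPM (2.91 to 5.75), and lowest in the Ubd stalk-like cluster, 0.76 CPM (0.28 to 1.66). In the Igfbp5 stalk-like cluster of the cGAMP library no UMI of Axin2 was found.

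Apcdd1, the membrane inhibitor on chromosome 18 from 62922231 to 62961179, had 57 UMIs with PBS and 29 with cGAMP. Its level was 0.62 CPM (0.47 to 0.80) and 0.46 CPM (0.31 to 0.66), and the interval of the log2 ratio, -0.44 (-1.13 to 0.23), spanned 0. Lef1, a nuclear partner of β-catenin on chromosome 3 from 131110471 to 131224356, had 7 UMIs in 6 PBS-treated ECs and 10 UMIs in 9 cGAMP-treated ECs. Its log2 ratio of 1.05 (-0.49 to 2.68) also spanned 0, and 7 of the 10 UMIs with cGAMP were in the Ubd stalk-like cluster. At this depth no difference in Apcdd1 or Lef1 between the libraries was detectable.

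The SoxF genes went in different directions. Sox17, on chromosome 1 from 4490931 to 4497354 on the - strand, was at 120.3 CPM (118 to 123) with PBS and 93.5 CPM (91.1 to 95.9) with cGAMP. The log2 ratio of -0.36 (-0.41 to -0.32), or 1.29-fold lower, was short of 1.5-fold, and 1761 of the 9509 genes had a lower one. Sox18, on chromosome 2 from 181669836 to 181671640 on the - strand, was at 199 CPM (196 to 202) with PBS and 279 CPM (275 to 284) with cGAMP. The log2 ratio of 0.49 (0.46 to 0.52), or 1.40-fold higher, was also short of 1.5-fold, and 610 genes had a higher one. Sox7, on chromosome 14 from 63943673 to 63950732 on the + strand, was at 98.5 CPM (96.5 to 100.5) and 92.6 CPM (90.2 to 94.99), a log2 ratio of -0.09 (-0.14 to -0.04) that is close to the median of all genes.

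Of the SoxF genes, Sox17 had the largest fold of the arterial-like cluster over the other ECs in both libraries. In the arterial-like cluster it stood at 270.1 CPM (259 to 281) with PBS, 2.58-fold the other ECs, and at 163 CPM (152 to 174) with cGAMP, 1.88-fold the other ECs, and in both libraries this interval was apart from that of the second cluster, the Gal tip-like one. The Gal cluster had 127 CPM (121 to 132) and 130.4 CPM (122 to 140). The libraries differed most in the arterial-like cluster, with a log2 ratio of -0.73 (-0.84 to -0.62), and in the Ubd stalk-like cluster, with 93.4 CPM (86.8 to 100.4) against 57.3 CPM (53.5 to 61.5) and a log2 ratio of -0.70 (-0.85 to -0.56). Both ratios were farther below 0 than the one over all ECs. In the Gal tip-like, Pgf tip-like and Ung proliferative-like clusters the interval of the ratio spanned 0. The arterial markers that were lower with cGAMP, given beside Dkk2, moved with Sox17 in this cluster too, and their part in its level was not tested.

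With Dkk2 and Fzd6, Sox17 was 1 of 3 members at least 1.5-fold higher in the arterial-like cluster than in the other ECs in both libraries, which held for 5.12% of the 9509 genes. Of the 6 genes past the minimum, Dkk2, Fzd6 and Sox17 had the same leading cluster in both libraries.

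Sox18 was higher with cGAMP in 8 of 8 clusters, with the interval above 0 in all 8. The ratio was lowest in the Gal tip-like cluster, 0.16 (0.08 to 0.24), where the level with PBS was highest, 259 CPM (251 to 267) against 288 CPM (275 to 302) with cGAMP. It was highest in the Ung proliferative-like cluster, 0.83 (0.74 to 0.93), and in the Ubd stalk-like cluster, 0.80 (0.71 to 0.90), with 165 CPM (156 to 174) in the PBS and 288 CPM (279 to 297) in the cGAMP library. With cGAMP 6 of the 8 clusters lay between 257 and 290 CPM, the arterial-like cluster stood above them at 334 CPM (319 to 349), and the Pgf tip-like cluster was lowest in both libraries, at 104 and 132 CPM. For Sox7 the order was less steady. Its highest cluster was the Gal tip-like with PBS, 125 CPM (119 to 130), and the Igfbp5 stalk-like with cGAMP, 131 CPM (113 to 151), and neither was apart from the second. Both proliferative-like clusters were lowest with PBS, at 77.4 and 75.2 CPM.

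**Figure D3:**
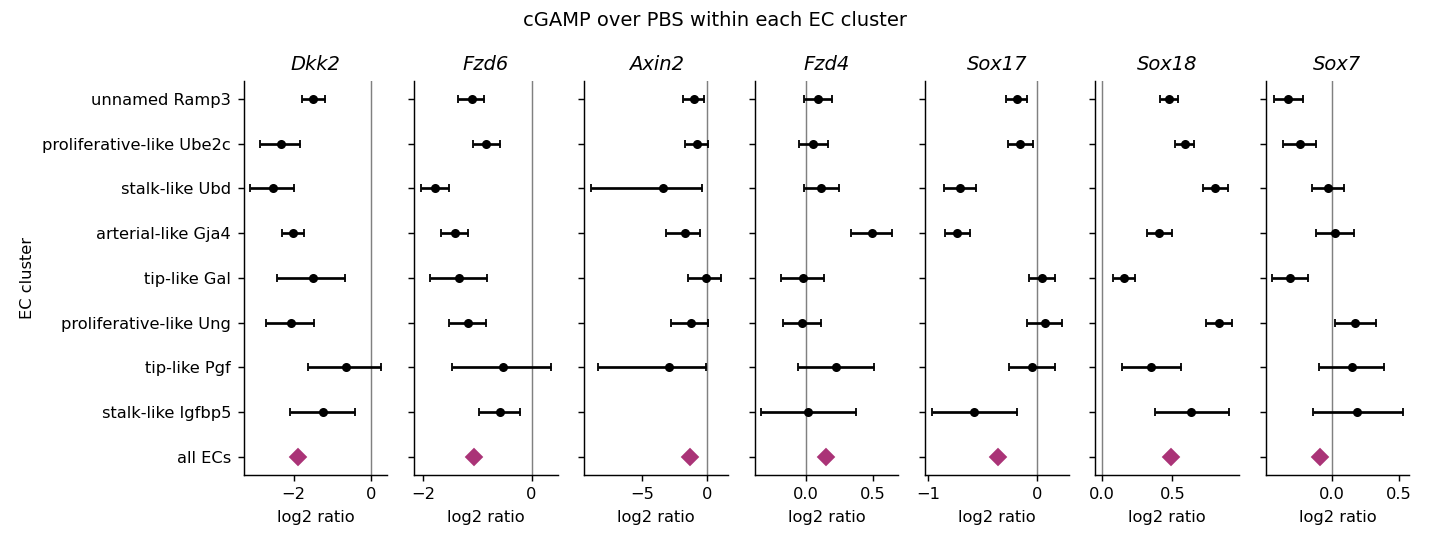
Log2 ratio of cGAMP over PBS within each EC cluster (black points with exact conditional binomial 95% intervals) and over all ECs (purple diamonds) for 7 genes, each panel with its own axis. The vertical line marks 0. Dkk2 and Fzd6 lie below 0 in 8 of 8 clusters and Sox18 above 0 in 8 of 8, Sox17 lies farthest below 0 in the arterial-like and Ubd stalk-like clusters, and the Igfbp5 cluster gives no ratio for Axin2.

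Shares of cells with a UMI were compared at equal depth. The cells of the cGAMP library were deeper, so each cell was thinned to 5000 UMIs, which dropped 70 ECs from the PBS and 13 from the cGAMP library. With PBS 10.3% (9.12 to 11.6) of ECs then had a UMI of Dkk2 and with cGAMP 3.47% (2.55 to 4.60), and the shares were 28.9% (24.1 to 34.0) and 10.9% (6.66 to 16.4) in arterial-like ECs. For Fzd6 the shares were 15.9% (14.5 to 17.4) and 10.0% (8.46 to 11.8), and in arterial-like ECs 33.5% and 16.6%. Both genes were thus found in fewer cells of the cGAMP library.

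For Sox18 the share was 57.8% (55.8 to 59.8) with PBS and 69.9% (67.3 to 72.3) with cGAMP, and for Sox17 40.9% (38.9 to 42.8) and 35.9% (33.3 to 38.5). The intervals of Fzd4, 33.2% and 36.7%, and of Sox7, 35.5% and 33.8%, overlapped between the libraries. Without thinning the share of Sox17 was 85.1% with PBS and 86.5% with cGAMP and that of Sox7 79.2% and 85.3%, against the direction of their levels. After thinning, 35 of 2447 ECs had a UMI of Axin2 with PBS and 3 of 1327 with cGAMP, and for Lef1 it was 2 and 0, the latter allowing a share of cells with a UMI, at 5000 UMIs a cell, of up to 0.226% by a floor of 3 counts. Lyz2, a leucocyte transcript that ECs should lack, had thinned shares of 1.80% with PBS and 5.28% with cGAMP. The thinned shares of Axin2, Lef1 and Apcdd1, and that of Dkk2 with cGAMP, were at or below those of Lyz2 over all ECs. Measured against Lyz2, Axin2, Lef1 and Apcdd1 cannot be told from background by their shares. Ptprc, the gene of CD45, had 0.163% (0.0446 to 0.418) with PBS and 0.151% with cGAMP. Col3a1, a fibroblast marker, had 2.29% with PBS and 1.28% (0.748 to 2.04) with cGAMP. Axin2 with PBS, 1.43% (0.998 to 1.98), was above Ptprc, with intervals apart, and below Col3a1. The intervals of Axin2 with cGAMP, and of Lef1 and Apcdd1, overlapped those of Ptprc. Dkk2 with cGAMP was above Ptprc and Col3a1, with intervals apart. In arterial-like ECs Lyz2 was found in 1.17% (0.32 to 2.96) with PBS and 6.29% (3.18 to 10.97) with cGAMP. The share of Dkk2 there was higher in both libraries, with intervals apart with PBS and overlapping with cGAMP. In every other cluster of the cGAMP library but the Ramp3 one, the share of Dkk2 was at or below that of Lyz2.

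**Figure D4:**
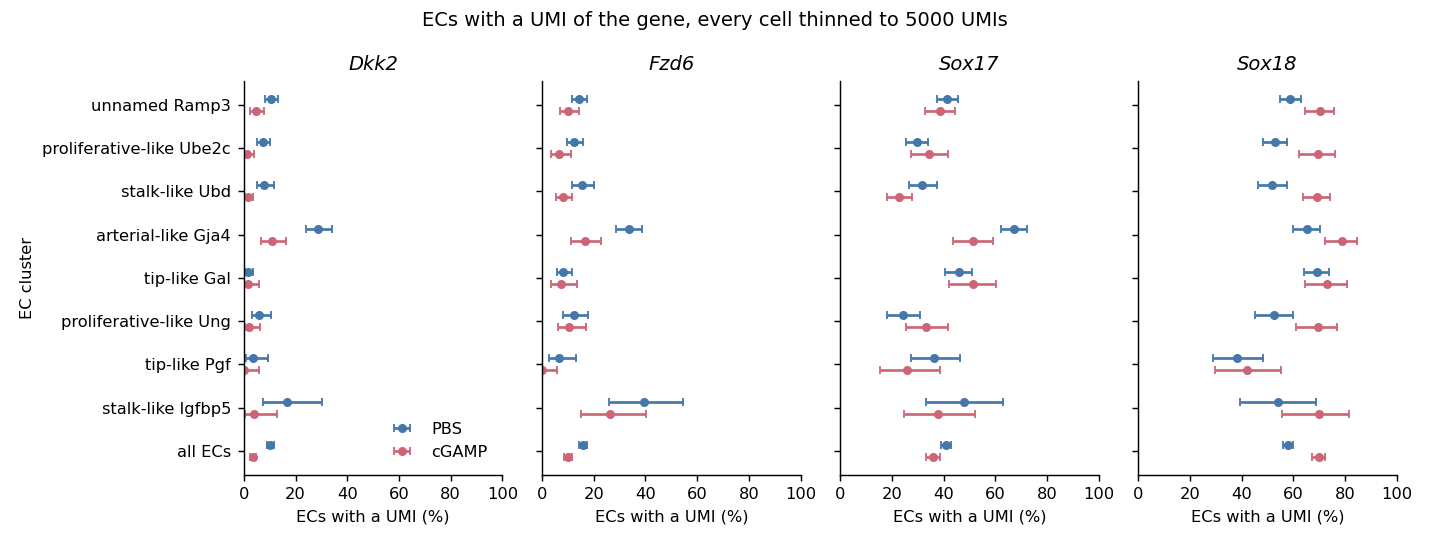
Percent of ECs with at least 1 UMI of Dkk2, Fzd6, Sox17 or Sox18 after each cell was thinned to 5000 UMIs, by cluster and over all ECs, for the PBS library (blue) and the cGAMP library (red), with exact Clopper-Pearson 95% intervals. In the arterial-like cluster Dkk2 goes from 28.9% to 10.9% and Sox17 from 67.3% to 51.4%, while Sox18 goes from 65.3% to 78.9%. In the Gal tip-like cluster Sox17 goes from 45.9% to 51.2%, so that with cGAMP its shares in these clusters are close.

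Within single cells, those with Dkk2 more often had Fzd6 as well. Of thinned PBS-treated ECs with a UMI of Dkk2, 28.2% (22.7 to 34.2) had one of Fzd6, against 14.5% (13.1 to 16.1) of those without. Within the arterial-like cluster, where both genes were high, the shares were 41.4% (31.6 to 51.8) and 30.3% (24.6 to 36.5) with overlapping intervals. With cGAMP only 46 ECs had a UMI of Dkk2 after thinning, and the shares of Fzd6 were 23.9% (12.6 to 38.8) and 9.52% (7.97 to 11.3).

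Over all ECs, the share of cells with Sox18 was close in cells with and without Sox17. Sox18 was found in 59.9% (56.8 to 63.0) of PBS-treated ECs with Sox17 and in 56.4% (53.8 to 59.0) of those without, and in 72.1% and 68.6% with cGAMP. Within the arterial-like cluster these shares were 68.4% (62.0 to 74.3) and 58.9% (49.2 to 68.1) with PBS, with overlapping intervals, and 78.9% and 78.8% with cGAMP. The share of thinned ECs with all 3 SoxF genes was 9.28% (8.16 to 10.5) with PBS and 8.89% (7.42 to 10.6) with cGAMP, and the share with none of them 17.6% (16.1 to 19.2) and 13.6% (11.8 to 15.5). In arterial-like ECs all 3 were found in 17.8% and 17.7%. The intervals of the libraries overlapped for the share of all ECs with all 3 genes and were apart for the share with none.

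Around the 9 genes, the Wnt pathway of these cells was one of receptors and intracellular parts with few ligands. Of 24 Wnt ligands and Rspondins, 11 were listed and none reached 5 CPM. Wnt4 was the highest, at 4.42 CPM with PBS and 3.30 CPM with cGAMP. Of 21 receptors and co-receptors, 20 were listed and 8 reached 5 CPM, with a median log2 ratio of -0.15, against -0.08 over all genes. Beside 7.41% lower and 4.53% higher of all 9509 genes, 2 of the 8 were at least 1.5-fold lower with cGAMP and none higher. The lower ones were Fzd6 and Adgra2, the co-receptor for Wnt7 signals in brain vessels also known as Gpr124, at 18.6 CPM (17.7 to 19.5) with PBS and 6.69 CPM (6.07 to 7.36) with cGAMP, with a ratio of -1.48 (-1.63 to -1.32). The co-receptor Lrp6 had a log2 ratio of -0.32 and the Wnt receptor kinase-like protein Ryk one of -0.16.

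Among 19 genes grouped as inhibitors, 13 were listed and Dkk2 and Kremen1, a membrane partner of Dkk proteins, reached 5 CPM. Kremen1 had 11.8 CPM with PBS and 8.62 CPM with cGAMP, a log2 ratio of -0.45 (-0.60 to -0.30). All 18 cytoplasmic components were listed and 15 reached 5 CPM. None of the 15 was past 1.5-fold, all 15 had a ratio below 0, as did 59.6% of the 9509 genes, and their median was -0.27, against the median of -0.08 over all genes. The ratios of Axin1 (-0.05), Gsk3a (-0.06) and Btrc (-0.07) lay above that median of all genes, with intervals that spanned 0. The largest shifts were in Tnks2, a tankyrase that acts on Axin, with -0.54, and in the Dishevelled genes Dvl1, Dvl2 and Dvl3 with -0.53, -0.52 and -0.46. Ctnnb1, the gene of β-catenin, had 376 CPM with PBS and 299 CPM with cGAMP, for a ratio of -0.33 (-0.36 to -0.31).

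Of the TCF and LEF list, 11 genes reached 5 CPM. Of these, 3 were at least 1.5-fold lower with cGAMP and none higher, beside 7.41% lower and 4.53% higher of all 9509 genes. The median was -0.38, against -0.08 over all genes. Tcf7, the gene of TCF1, had 607 UMIs with PBS, or 6.59 CPM, and 117 with cGAMP, or 1.85 CPM, for a log2 ratio of -1.84 (-2.13 to -1.55). Ctnnbip1, an inhibitor of β-catenin and TCF binding, had 188 and 115 CPM and a ratio of -0.71, and Tle3, a co-repressor, 45.1 and 29.3 CPM and a ratio of -0.62. Pygo2 and Aes had ratios of -0.50 and -0.38.

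Among general target genes of β-catenin, 3 of 13 listed genes reached 5 CPM and did not share a direction. Tcf7 was lower, Myc was higher at 42.2 CPM against 25.4 CPM with a log2 ratio of 0.73 (0.65 to 0.81), and the cyclin gene Ccnd1 had 0.15. Of the blood-brain barrier genes 8 were listed and 3 reached 5 CPM. The efflux pump gene Abcb1a was lower, at 22.0 CPM against 39.0 CPM with a log2 ratio of -0.83 (-0.92 to -0.74), the glucose transporter gene Slc2a1 had -0.34, and the tight junction gene Cldn5 had -0.26.

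Of 19 Sox genes 12 were listed and 5 reached 5 CPM, none of which was past 1.5-fold. Beside the SoxF genes these were Sox4, with a log2 ratio of 0.09, and Sox13, with -0.54. Of 14 genes reported as SoxF targets, 13 reached 5 CPM, with 2 higher, 1 lower and a median of -0.10. Egfl7, an endothelial secreted protein, had 1182 CPM with PBS and 2122 CPM with cGAMP, for a ratio of 0.85, and the adhesion gene Vcam1 had 45.3 and 77.2 CPM, for 0.77. The arterial ephrin gene Efnb2 was lower, at 47.5 CPM against 75.8 CPM with a log2 ratio of -0.67, and the angiopoietin receptor gene Tek had -0.52. Vcam1 is also among the stalk-like markers used to name clusters, and Efnb2 among the arterial ones.

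**Figure D5:**
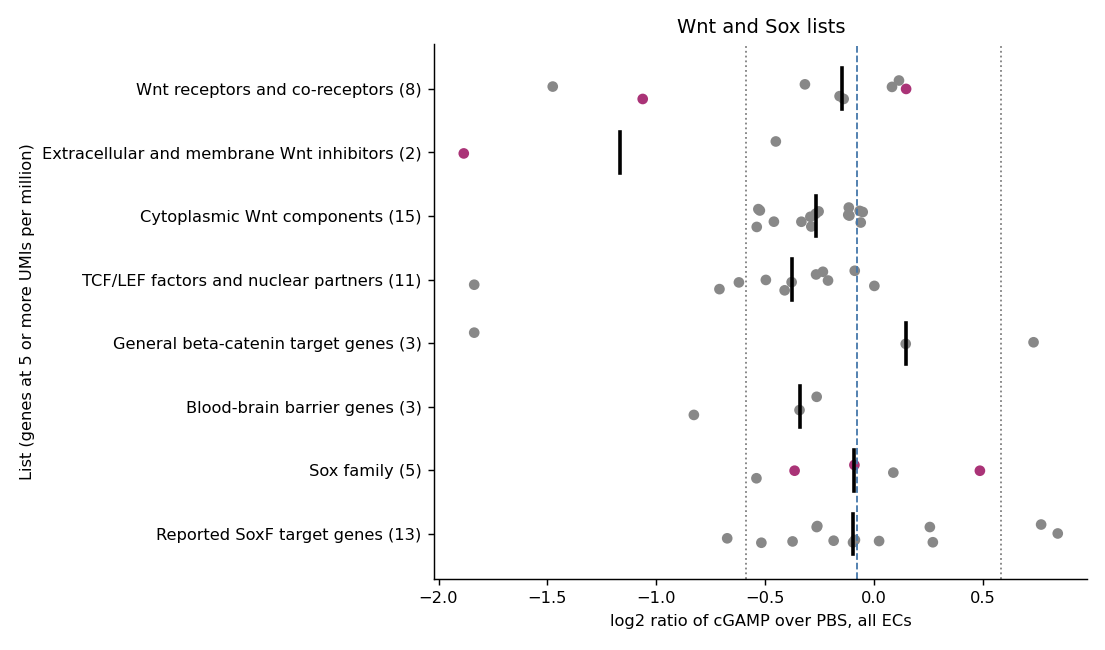
Log2 ratio of cGAMP over PBS over all ECs for the genes of 8 lists with at least 5 CPM in either library, the number of them in brackets. Points are genes, purple for the 9 described here, black bars are list medians, the dashed line is the median of all genes and the dotted lines mark 1.5-fold. The 15 cytoplasmic components lie between 1.5-fold lower and 0, and Dkk2, Tcf7 (in 2 of the lists), Adgra2 and Fzd6 lie farthest to the left.

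The pattern over clusters was compared with that of the 6045 genes with at least 20 CPM, as the Pearson correlation of log2 levels (5 CPM added) over the 16 values of 8 clusters in 2 libraries, each less its library's mean. The values share cells and depth, and the correlations are a description. Most alike to Dkk2 were Vegfc (0.95), a growth factor of lymphatic vessels, Slc9a3r2 (0.92) and Podxl (0.92). Most alike to Fzd6 were the flow-responsive factor Klf2, Tsc22d3 (both 0.99) and Slc44a2 (0.98). Between the libraries the log2 ratio was 0.38 for Vegfc (29.3 CPM with PBS and 38.1 CPM with cGAMP), -0.44 for Slc9a3r2 (232 and 172 CPM) and -0.17 for Podxl (106 and 93.9 CPM), beside -1.88 for Dkk2. It was 0.61 for Klf2 (283 and 432 CPM), -0.07 for Tsc22d3 and -0.02 for Slc44a2, beside -1.06 for Fzd6. Fzd4 was nearest to Rps6ka3 (0.96), Plpp3 and Ccnyl1 (both 0.95), and Sox17 to Rflnb (0.93), Fes and Slc45a4 (both 0.92), of which Rflnb had 151 and 61.7 CPM and a ratio of -1.29. Sox18 was nearest to Cd34, Vps52 and Plgrkt (each 0.87). Sox7 was nearest to Trim56 (0.95), Tapbp and the class I gene H2-D1 (both 0.94), the last with 1536 CPM in the PBS and 4218 CPM in the cGAMP library. Among the members themselves the highest values were 0.83 for Fzd4 with Fzd6 and 0.77 for Dkk2 with Fzd6, and Sox17 stood at 0.59 with Dkk2 and 0.28 with Sox18.

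Markers of other cell types also differed between the libraries, and some of them were found in many of the sorted ECs. The 14 listed of 16 leucocyte markers summed to 53.6 CPM with PBS and 123 CPM with cGAMP, and 5 of the 6 with at least 5 CPM were at least 1.5-fold higher. Cd14 alone held 32.5 and 67.9 CPM of these sums, and was found in 989 of 2517 and 787 of 1340 ECs. Ptprc, the gene of CD45, was at 0.25 and 0.60 CPM. Fibroblast markers summed to 8.35 and 3.52 CPM, carcinoma markers to 2.15 and 0.39 CPM and mural markers to 66.9 and 69.4 CPM. Of the 4 mural markers with at least 5 CPM, Kcnj8, also a leading gene of the Gal tip-like cluster, was higher, at 24.6 and 36.1 CPM. The other 3 had a ratio below 0, with Rgs5 at 5.46 and 1.75 CPM. Lymphatic markers summed to 60.8 and 82.8 CPM. Of the 3 with at least 5 CPM, Lyve1 was higher, at 10.2 and 43.6 CPM in 324 and 507 ECs. The other 2 were lower, Flt4 at 42.8 and 37.7 CPM, and Ccl21a at 5.35 CPM in 9 ECs with PBS and 0 with cGAMP. The lymphatic factor gene Prox1 was at 2.01 and 0.99 CPM. In ECs with UMIs of Pecam1 and Cdh5 and none of Ptprc, 2481 with PBS and 1304 with cGAMP, the log2 ratio was -1.91 for Dkk2, -1.05 for Fzd6, -1.27 for Axin2, -0.36 for Sox17 and 0.49 for Sox18. The median share of mitochondrial UMIs was 4.49% with PBS and 2.87% with cGAMP, and in cells with at most 5% the ratio of Dkk2 was -1.75 and that of Fzd6 -0.88.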

How the data were processed

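Droplet-based scRNA-seq of sorted tumour ECs was analysed, 1 library with PBS and 1 with cGAMP. According to the submitters' processing notes, reads were processed with Cell Ranger 3.0.0 and Seurat 3.1.1 on mm10. The labels give the droplet kit as version 2, the methods as version 3. The authors kept cells with at least 500 genes and at most 10% mitochondrial UMIs, removed non-endothelial clusters, and deposited the natural log of 1 plus the UMIs per 10000 of each cell. UMI counts were recovered by undoing the logarithm, and in each library 100% of the nonzero results lay no more than 0.01 from an integer. The libraries share 1 cell barcode.

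Levels are UMIs summed over cells, with exact Poisson intervals. Ratios have exact conditional binomial and shares exact Clopper-Pearson intervals, at 95%. With 1 library a condition no test was made. Clusters came from Seurat 5.3.0 under R 4.3.3, with 2500 variable genes less those that differed 2-fold between the libraries and the 9 members (1792 used), integration anchors, 30 principal components and a Louvain resolution of 0.5. A cluster was named when at least 3 markers of a class were 2-fold higher there, with 1 or more among its 10 leading genes. Doublets were not removed. Named list genes are the highest and up to 4 with the largest ratio among those with at least 5 CPM, and those most alike are the first 3. The genes, lists and naming thresholds were chosen with earlier results of these data known. Gene positions are from GENCODE on GRCm38. Alternatives covered scaling, thinning, cell filters, clustering and CPM minimums.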

Additional observations from a re-analysis of the deposited data

Results flagged for a closer look

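Sox7 differed between the libraries in opposite directions in different clusters. Its log2 ratio of cGAMP over PBS was 0.18 (0.02 to 0.33) in the Ung proliferative-like cluster, with the interval above 0, and below 0 in the Ramp3 cluster, -0.32 (-0.43 to -0.22), in the Ube2c proliferative-like cluster, -0.24 (-0.36 to -0.11), and in the Gal tip-like cluster, -0.31 (-0.44 to -0.18). Each cluster has 1 library a condition, the intervals cover counting error only, and the difference between the clusters was not tested.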

How the results depend on the processing

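At the minimum of 5 CPM, 2 of 6 genes were past 1.5-fold between the libraries, beside 11.9% of all 9509 genes. Without the minimum, 4 of the 9 genes were (Dkk2, Fzd6, Axin2 and Lef1, the last with an interval that spans 0). Under 7 alternatives, also without the minimum, 4 or 5 genes were past 1.5-fold. Dkk2, Fzd6 and Axin2 were past it under all 7, Lef1 under 6, as it gave no ratio in thinned cells, and Apcdd1 under 3 (thinned cells, cluster proportions held equal, and a mitochondrial limit of 5%). Over these, the log2 ratio ran from -1.91 to -1.68 for Dkk2, -1.23 to -0.73 for Fzd6, -2.66 to -1.26 for Axin2, -0.42 to -0.29 for Sox17, 0.49 to 0.56 for Sox18, 0.13 to 0.22 for Fzd4 and -0.11 to -0.01 for Sox7. Apcdd1 ran from -0.66 to 0.88, the latter in thinned cells, where 3 ECs of each library had a UMI. The number of genes with the same leading cluster was 3 of 6 (Dkk2, Fzd6 and Sox17), 5 at a Louvain resolution of 0.3, 4 with all variable genes but the members (Sox18 added), and 3 without integration (Dkk2, Sox17 and Sox18). At a Louvain resolution of 0.3 and without integration, the Igfbp5 cluster did not lead for Fzd6. The arterial-like cluster led for Dkk2 and Sox17 in both libraries under all 6 clustering alternatives. The difference in the share of ECs with Sox17 turned from -4.996 to 1.43 percentage points without thinning. List genes past 1.5-fold were 11 of 58 with a minimum of 5 CPM, and 19 of 72 with a minimum of 1 CPM. No paired analysis was possible because each condition has 1 library. Counts under 5 CPM, as for Lef1 and Apcdd1, limit what these depths can show.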
